A study of Mus musculus with 8 samples.

Results

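The 9 genes described here encode the connexins, pannexins and a scaffold protein of glial gap junctions, and they were taken by name from 39179 Ensembl mouse gene identifiers with read counts. They are Gja1, Gjb6 and Gjb2, the connexin genes of astrocytes, Gjb1 and Gjc3, connexin genes of the oligodendrocyte lineage, Gjc1, the pannexin genes Panx1 and Panx2, and Tjp1. RNA came from spinal cord of mice 12 to 14 days old on a mixed swiss-webster background. The cord was freed of meninges and digested with papain, and cells positive for the Aldh1l1-GFP reporter were flow sorted as astrocytes. The 4 control libraries came from animals without cre, labelled wild-type/Aldh1l1-GFP+, and are called control S1, S2, S6 and S7 after their labels. The 4 conditional knockout libraries came from animals with Aldh1l1-cre and floxed Kir4.1 alleles, labelled Kir4.1-cKO/Aldh1l1-GFP+, and are called cKO S3, S4, S5 and S8. Values per library are always listed in these orders. The Aldh1l1 promoter, known as an astrocyte promoter, drives both cre and the reporter. Both groups carried the GFP reporter, and the labels do not say whether the controls also carried floxed alleles or how many animals made up a library.

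Gap junctions join the cytoplasm of neighbouring cells through channels built from connexins, one half-channel from each cell. In astrocytes they let potassium, glutamate products and calcium signals spread through a network of coupled cells. Kir4.1, the potassium channel encoded by Kcnj10, is a known route by which these cells take up potassium. Astrocytes are known for Cx43 (Gja1), Cx30 (Gjb6) and, at lower levels, Cx26 (Gjb2), whereas Cx32 (Gjb1) and Cx29 (Gjc3) are known from the oligodendrocyte lineage. Pannexins share the membrane topology of connexins but form channels to the outside of the cell that release ATP.

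Connexins share spaced cysteines in their extracellular loops, which hold the loops in shape where half-channels dock. The coding sequences of GENCODE release 21 on GRCm38 were searched in frame for 3 cysteine codons (TGT or TGC), the first 2 with 6 codons between them and the last 2 with 3 codons between them. The stretch is shown because it separates the 6 connexin genes from the other members: each of the 6 held it once, and Panx1, Panx2 and Tjp1 did not hold it. Capitals mark the cysteine codons, and each stretch is 36 bases of coding sequence, 5′ to 3′.
Gja1: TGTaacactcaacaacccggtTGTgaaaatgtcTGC
Gjb6: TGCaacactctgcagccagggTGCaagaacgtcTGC
Gjb2: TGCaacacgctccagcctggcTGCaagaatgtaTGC
Gjb1: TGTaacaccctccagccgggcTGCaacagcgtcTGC
Gjc3: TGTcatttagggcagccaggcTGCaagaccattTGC
Gjc1: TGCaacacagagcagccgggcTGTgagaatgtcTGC
The stretch began at codon 53 in Gjb2, Gjb6, Gjb1 and Gjc1, at codon 54 in Gja1 and at codon 64 in Gjc3. Gjb2 and Gjb6 shared 30 of its 36 bases, the most of the 15 pairs, and Gja1 and Gjc3 shared 18, the fewest. Over whole coding sequences, identity ran from 55.4% (Gjb6 and Gjc3) to 75.6% (Gjb2 and Gjb6). The longest identical run in any pair was 20 bases, in Gjb2 and Gjb6.

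Gene reads per library numbered 13892736 to 25065686, and 17312 to 20470 genes had at least 1 read. Levels are given as CPM, a gene's reads per 1000000 gene reads after TMM scaling. Kcnj10, the targeted gene, was at 1820 CPM in controls (SD 468, n = 4) and 34.0 CPM in cKO libraries (SD 4.64, n = 4), and no cKO library reached the level of any control. Control S1 was the lowest control, with Kcnj10 at 58.1% of the mean of the other 3 controls. The astrocyte markers Aldh1l1, Slc1a2, Slc1a3, Aqp4, Gfap, Glul, Sox9 and Aldoc had counts in every library, with a summed level of 14174 to 19591 CPM in controls and 16620 to 20567 CPM in cKO. Of these 8 markers, 2 rose in cKO: Aldh1l1, whose promoter drives the reporter used for sorting and cre (log2 fold change 1.01, adjusted p 0.0179, edgeR), and the water channel gene Aqp4 (1.09, adjusted p 0.0243, edgeR). Markers of oligodendrocytes (12 genes) summed to 1539 to 3078 CPM in controls and 1022 to 2481 CPM in cKO, so RNA of that lineage was present beside that of astrocytes. In these bulk samples, fewer cells of a type and less RNA per cell cannot be told apart.

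Between the groups, 0 of the 9 members passed the test. All 9 entered edgeR's quasi-likelihood fit. After Benjamini-Hochberg adjustment over the 14757 genes tested, 0.318% of all genes (47) were below 0.05, 0.203% higher and 0.115% lower in cKO, and no member was among them. The lowest adjusted p of a member was 0.47, for Panx1. At an unadjusted p under 0.05 there was 1 member, Panx1, lower in cKO, against 9.81% of all genes tested (5.03% higher and 4.77% lower in cKO). DESeq2 called 0 members among 2.49% of the genes it tested. The authors' deposited table also gave no member an adjusted p under 0.05, where 2.87% of genes with an adjusted p had one. That table gives no adjusted p for Panx2. The log2 fold change, cKO over control, was negative for 7 members and positive for 2, with a median of −0.48, against −0.017 over all genes tested.

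**Figure D1:**
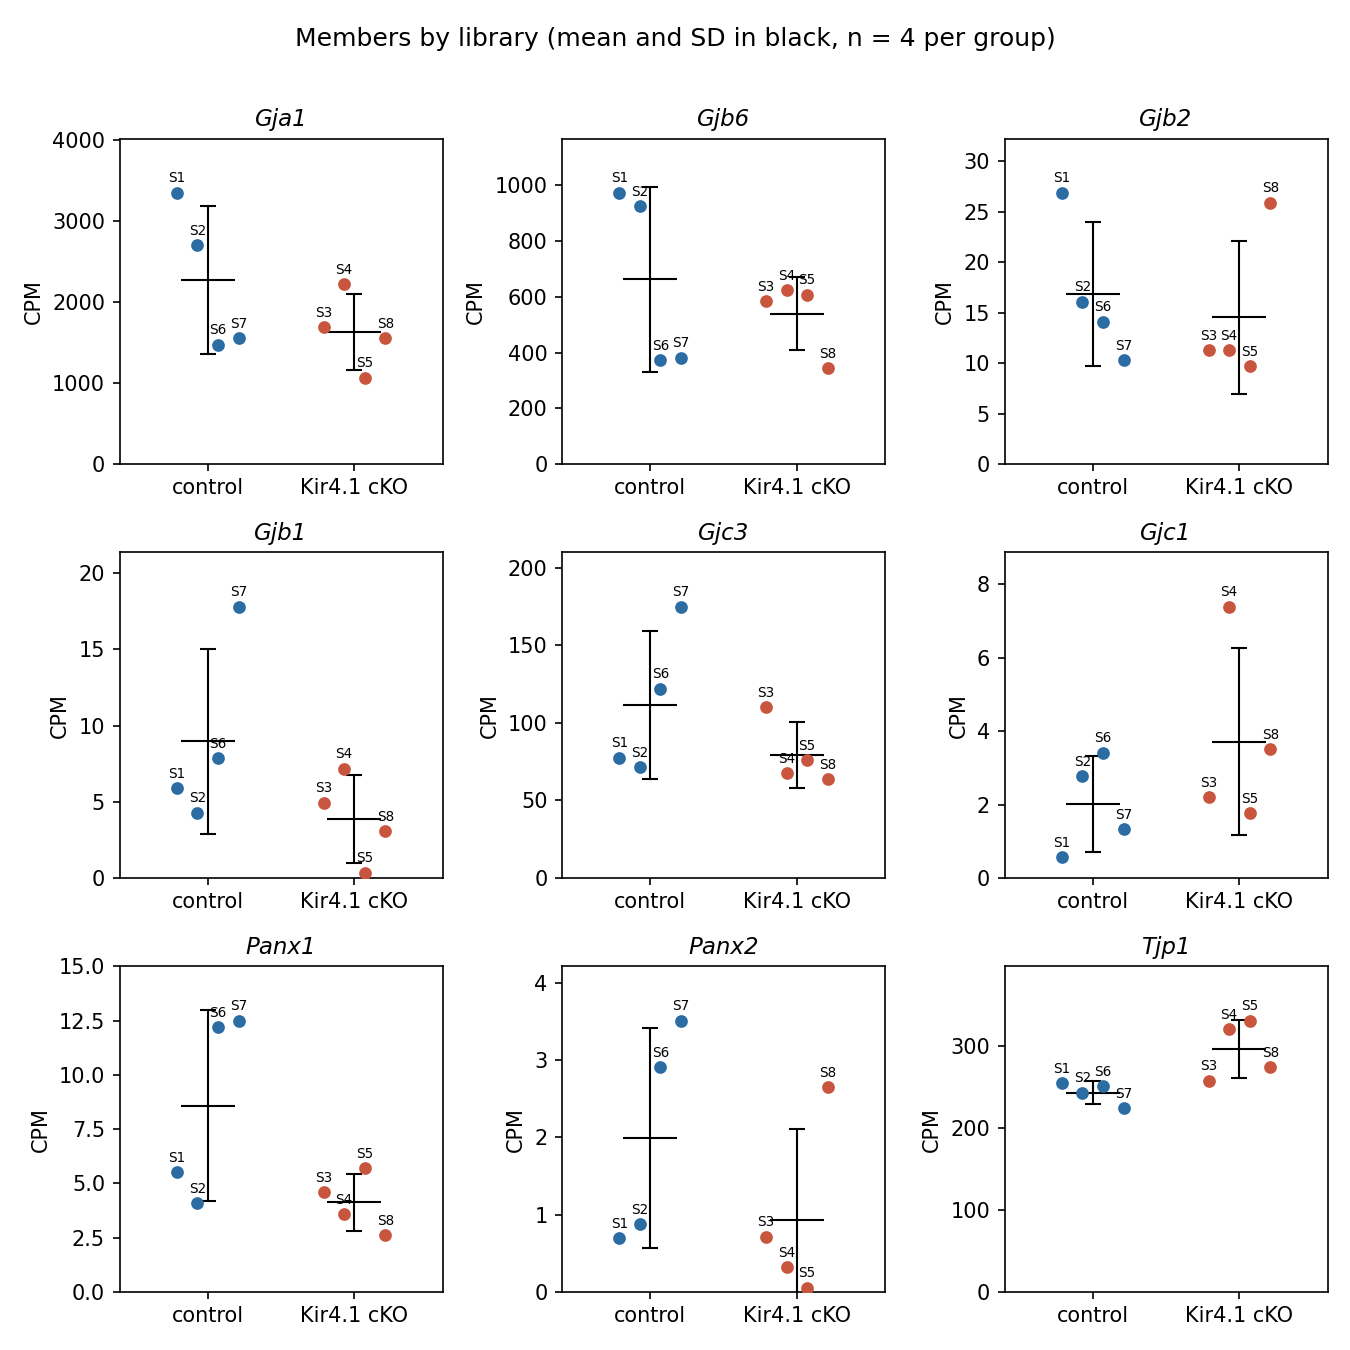
CPM of each member in each library (points, labelled by library), with the group mean and SD (n = 4 per group) in black. The groups overlap for every member except Tjp1, and the lower SD bar of Panx2 in cKO runs past 0 and is clipped there.

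Gja1 (ENSMUSG00000050953, chromosome 10, 56377330 to 56402513, plus strand on GRCm38) encodes Cx43, the main gap junction protein of astrocytes. It was at 3352, 2705, 1475 and 1554 CPM in the controls, and at 1687, 2220, 1064 and 1553 CPM in the cKO libraries. Control S1 and S2 were above all other libraries, while control S6 and S7 lay within the range of cKO. The group means were 2271 CPM ± 914 and 1631 CPM ± 475 (SD, n = 4 each). The fold change was 0.718, with a 95% interval of 0.472 to 1.09 and an adjusted p of 0.617 (edgeR). The log2 fold change of −0.48 was −0.23 without control S1 and −0.32 without cKO S5. The interval reaches from a level below 0.5 of control to slightly above it, and a p that misses the threshold does not show that the groups were alike.

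Gjb6 (ENSMUSG00000040055, chromosome 14, 57123303 to 57133611, minus strand) encodes Cx30, the other abundant astrocyte connexin, which is known to appear later in development than Cx43. It was at 974, 926, 372 and 381 CPM in the controls, and at 585, 623, 608 and 344 CPM in the cKO libraries. As for Gja1, control S1 and S2 were highest. cKO S3, S4 and S5 lay between the pairs of controls, and cKO S8 was the lowest library of all. Between groups its fold change was 0.814 (95% interval 0.506 to 1.31) and the adjusted p 0.813 (edgeR). Its log2 fold change of −0.30 was −0.05 without control S1, −0.09 without control S2 and −0.13 without cKO S8, and −0.49 without either control S6 or S7. Over the 8 libraries, Pearson's r of log2 CPM between Gja1 and Gjb6 was 0.71, a description of libraries that also differ in depth and in astrocyte marker level. The summed astrocyte markers were at 19591 and 18538 CPM in control S1 and S2 and at 14338 and 14174 CPM in control S6 and S7, a gap carried mainly by the glutamate transporter gene Slc1a2 (11936 and 11729 against 8999 and 7762 CPM). Not all astrocyte markers followed it: Gfap was at 165 and 145 against 257 and 289 CPM, Slc1a3 at 637 and 547 against 720 and 703 CPM, and Aldh1l1 at 151 and 135 against 131 and 139 CPM. The share of rRNA-like transcripts among gene reads was 45.1% in control S6, 43.1% in control S7 and 44.1% in cKO S8, the 3 libraries lowest in Gjb6, and 32.8% to 39.1% in the other 5. The part of either measure in the connexin levels was not tested. With rRNA-like transcripts removed the log2 fold changes of Gja1 and Gjb6 stayed at −0.48 and −0.30. That fit drops the transcripts but does not adjust for their share in a library, so it cannot show the part of that share.

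Gjb2 (ENSMUSG00000046352, chromosome 14, 57098600 to 57104702, minus strand) encodes Cx26, which is also known from fibroblasts of the meninges. Its neighbour Gjb6 lies 18.6 kb away on the same strand, with the predicted gene Gm4491 between them. Gjb2 was at 26.9, 16.1, 14.1 and 10.3 CPM in the controls, and at 11.3, 11.3, 9.69 and 25.9 CPM in the cKO libraries. Control S1 and cKO S8 were high and the other libraries lay close together, so the groups overlapped. The fold change was 0.867 (95% interval 0.492 to 1.53) and the adjusted p 0.903 (edgeR). Its sign depended on control S1: without that library the log2 fold change was 0.11 in place of −0.21. It was −0.38 without control S7, −0.64 without cKO S8 and −0.05 to −0.10 without cKO S3, S4 or S5. Fibroblast markers (9 genes, 5 of them at 0 in some library) summed to 124, 203, 648 and 251 CPM in the same order of controls and to 187, 79.1, 102 and 164 CPM in cKO. Between Gjb2 and these sums r of log2 values was 0.00 over the 8 libraries, a description. In control S1 most of the sum was Col1a2 (88.9 CPM), and Col3a1, Dcn and Lum were at 0 there. Pdgfra, which is also among the precursor markers, was at 72 CPM in control S7. The sum and its r may therefore not follow fibroblast RNA. The part of fibroblast RNA in the Gjb2 level was not tested.

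The promoters of the astrocyte connexins are shown because Gjb2 and Gjb6 are close neighbours at very different levels, while Gjb6 and Gja1, on different chromosomes, are both abundant. RefSeq windows on GRCm38.p6 matched 7 of the 9 members, and the 250 bases before the annotated start site are printed 5′ to 3′ on the gene's strand. Capitals mark matches, on either strand, to 4 motifs, and no matches overlapped in these windows. The TATA box was searched as TATAAA and occurred in 12.4% of all 32851 windows of this length. The second motif was CCAAT, which occurred in 33.8% of windows. The GC box was searched as GGGCGG and occurred in 32.7%, and the AP-1 site as TGANTCA in 6.75%.
Gja1, chr10:56377050-56377299, plus strand: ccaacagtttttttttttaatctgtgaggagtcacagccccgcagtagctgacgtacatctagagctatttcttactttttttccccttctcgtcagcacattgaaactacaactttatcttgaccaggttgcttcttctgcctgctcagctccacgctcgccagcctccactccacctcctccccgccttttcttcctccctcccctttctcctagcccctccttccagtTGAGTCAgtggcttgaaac
Gjb6, chr14:57133612-57133861, minus strand: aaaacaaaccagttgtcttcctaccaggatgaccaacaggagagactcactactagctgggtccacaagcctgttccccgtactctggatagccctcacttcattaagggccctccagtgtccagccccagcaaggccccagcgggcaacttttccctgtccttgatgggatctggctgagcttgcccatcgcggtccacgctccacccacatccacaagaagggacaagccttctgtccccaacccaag
Gjb2, chr14:57104703-57104952, minus strand: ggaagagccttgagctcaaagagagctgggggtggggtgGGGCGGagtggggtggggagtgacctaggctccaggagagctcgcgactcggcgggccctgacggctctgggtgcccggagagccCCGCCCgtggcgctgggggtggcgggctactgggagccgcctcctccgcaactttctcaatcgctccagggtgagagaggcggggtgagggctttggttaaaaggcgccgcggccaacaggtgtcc
The Gja1 window held 1 AP-1 letter match, 19 bases before the start site, and none of the other motifs. The Gjb6 window held none of the 4, and the Gjb2 window held 2 GC boxes. The GC content was 50% for Gja1, 56.8% for Gjb6 and 69.2% for Gjb2, against a median of 52.4% over all windows. These matches describe letters in the windows and not sites of binding.

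Gjc3 (ENSMUSG00000056966, chromosome 5, 137953461 to 137963098, minus strand) encodes Cx29, a connexin of myelinating glia. It was at 77.6, 71.4, 122 and 175 CPM in the controls, and at 110, 67.7, 76.1 and 63.6 CPM in the cKO libraries. Control S7 and S6 were highest, which is the reverse of Gja1 and Gjb6, and cKO S3 was the highest of its group. For Gjc3 the fold change was 0.711 (95% interval 0.469 to 1.08) and the adjusted p 0.6 (edgeR). Its log2 fold change of −0.49 was −0.18 without control S7. Markers of oligodendrocyte precursors (7 genes, all with counts in every library) summed to 527, 376, 931 and 1347 CPM in the controls and to 553, 275, 303 and 283 CPM in the cKO libraries. The libraries with most Gjc3 were those with most precursor marker RNA (r of log2 values 0.95 over the 8 libraries, a description). Most of that sum in control S7 was Gpr17 (751 CPM) and Bcas1 (347 CPM). All precursor markers but Cspg4 were higher in control S6 and S7 than in control S1 and S2. Cspg4 was highest in cKO S8 among cKO libraries (22.2 CPM), where Gjc3 was lowest. Against summed oligodendrocyte, neuronal and fibroblast markers r was 0.64, 0.65 and 0.63, and against astrocyte markers −0.84. The pattern was not particular to precursor markers. The part of precursor RNA in the Gjc3 level was not tested.

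Gjb1 (ENSMUSG00000047797, chromosome X, 101376378 to 101385629, plus strand) encodes Cx32 of oligodendrocytes and Schwann cells. It was at 5.89, 4.29, 7.85 and 17.8 CPM in the controls, and at 4.95, 7.17, 0.342 and 3.08 CPM in the cKO libraries. Control S7 alone was high, and cKO S5 was low with 6 counts. The fold change was 0.434, with the wide 95% interval of 0.155 to 1.22 and an adjusted p of 0.607 (edgeR). Without control S7 the log2 fold change was −0.62 in place of −1.20. Summed oligodendrocyte markers were at 2234, 1539, 2487 and 3078 CPM in the controls and 1614, 1952, 2481 and 1022 CPM in the cKO libraries. Between Gjb1 and these sums r of log2 values was 0.18, and for precursor markers 0.65 (8 libraries, a description). The part of RNA of either kind in the Gjb1 level was not tested. The gene is X-linked, and Xist, the transcript of the inactive X, was at 1820 to 2400 CPM in control S1, S6 and S7 and cKO S4 and S8, and under 1 CPM in the rest. With Xist level as a covariate the log2 fold change was −0.93 and its adjusted p 0.825 (edgeR).

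Gjc1 (ENSMUSG00000034520, chromosome 11, 102799579 to 102819700, minus strand) encodes Cx45, known from smooth muscle, pericytes and some neurons. It was at 0.57, 2.77, 3.41 and 1.33 CPM in the controls, and at 2.2, 7.39, 1.77 and 3.51 CPM in the cKO libraries. cKO S4 held the most, with 163 counts, and the other cKO libraries lay within the control range or just above it. Its fold change was 1.84 (95% interval 0.666 to 5.1) and the adjusted p 0.721 (edgeR), and the log2 fold change of 0.88 was 0.31 without cKO S4 and 0.57 without control S1. Mural markers (8 genes, of which Acta2, Vtn and Kcnj8 were at 0 in some library) summed to 59.7 to 74.3 CPM in controls and 52.5 to 62.3 CPM in cKO, with 55.5 CPM in cKO S4. In cKO S4 most of that sum was Pdgfrb (29.6 CPM) and Cspg4 (15.1 CPM), and Cspg4 is also among the precursor markers. Between Gjc1 and the summed mural markers r of log2 values was −0.76, and for endothelial markers −0.80 (8 libraries, a description). The part of mural RNA in the Gjc1 level was not tested.

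Panx1 (ENSMUSG00000031934, chromosome 9, 15002128 to 15045478, minus strand) encodes the pannexin of ATP-releasing channels. It was at 5.51, 4.08, 12.2 and 12.5 CPM in the controls, and at 4.6, 3.58, 5.7 and 2.61 CPM in the cKO libraries. Control S6 and S7 were above all other libraries, and control S1 and S2 lay within the cKO range. The fold change was 0.48, with a 95% interval of 0.241 to 0.956 and an unadjusted p of 0.0386, but the adjusted p was 0.47 (edgeR). DESeq2 gave an adjusted p of 0.248, the lowest over the 16 alternatives, which ran up to 0.711. Panx1 was high where summed neuronal, precursor and oligodendrocyte markers were high (r of log2 values 0.89, 0.90 and 0.85 over the 8 libraries, a description). Against summed astrocyte markers r was −0.75, and against Gjc3 it was 0.87, so the pattern was not particular to neuronal markers. Neuronal markers (10 genes, with Slc32a1 at 0 in some library) summed to 61.8, 51.3, 71.4 and 89 CPM in the controls and to 34.5, 36.6, 56.8 and 34.5 CPM in the cKO libraries. In control S7 most of that sum was Snap25 (40 CPM) and Gad2 (27 CPM). Among the controls Snap25, Gad2, Syt1 and Tubb3 were highest in S7. Nefl, Rbfox3, Slc17a6 and Slc32a1 were lowest there (8.53, 1.18, 0.189 and 0.0947 CPM), and Gad1 and Stmn2 lay between. The part of RNA from neurons or the oligodendrocyte lineage in the Panx1 level was not tested.

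Panx2 (ENSMUSG00000058441, chromosome 15, 89059734 to 89073567, plus strand) encodes a pannexin best known from neurons. It overlaps 1810021B22Rik but shares no exon with it. It was the member with fewest counts, with 11, 12, 53 and 74 counts in the controls and 14, 7, 1 and 62 counts in the cKO libraries. Control S6 and S7 and cKO S8 were high and the other 5 libraries were below 1 CPM. The log2 fold change of −1.08 had a 95% interval of −3.21 to 1.04 and an adjusted p of 0.768 (edgeR), and without cKO S8 it was −2.44. The value was −0.65 without control S7, −0.69 without cKO S5 and −1.73 with limma-voom. The highest library was at 61.5 times the lowest, and no difference between the groups was detected.

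Tjp1 (ENSMUSG00000030516, chromosome 7, 65296165 to 65527781, minus strand) encodes ZO-1, a scaffold that binds the tail of Cx43 at the edge of gap junction plaques. It overlaps the predicted genes Gm44794, Gm44795 and Gm44792 without sharing exons. It was at 255, 243, 251 and 224 CPM in the controls, and at 258, 321, 331 and 274 CPM in the cKO libraries. Every cKO library was above every control, though cKO S3 and control S1 differed by only a few CPM. Tjp1 was the 1 member without overlap, and 6.34% of all genes tested had libraries that did not overlap (3.39% with cKO higher and 2.94% with cKO lower). The means were 244 CPM ± 13.8 and 296 CPM ± 35.6 (SD, n = 4 each), a fold change of 1.21 (95% interval 0.978 to 1.51). Its adjusted p was 0.555 (edgeR), so it did not pass. Of the 9 members it varied least, with the highest library at 1.48 times the lowest, against 2.76 times for Gjc3, 2.83 times for Gjb6 and 3.15 times for Gja1.

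**Figure D2:**
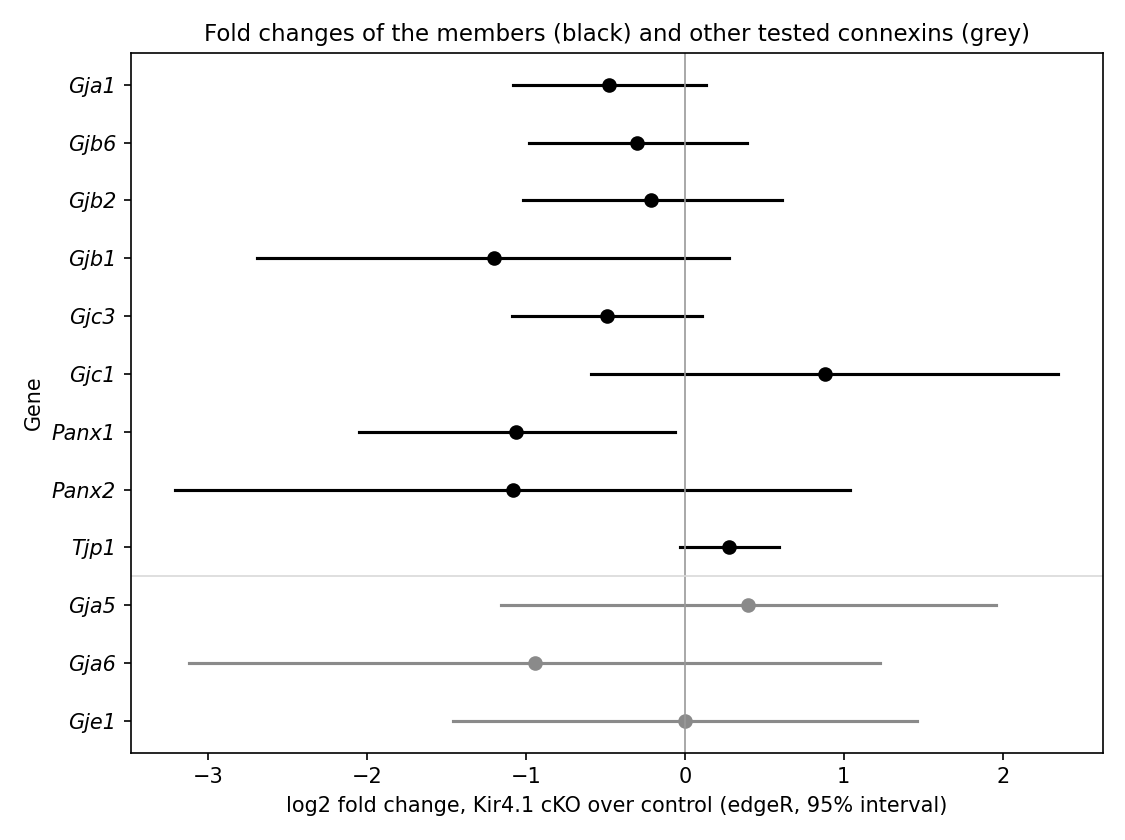
Log2 fold change, cKO over control, with its 95% interval from edgeR's quasi-likelihood fit (4 libraries per group). Members are black and the 3 other connexin genes that were tested are grey. The intervals of Gja1, Gjb6, Gjc3 and Tjp1 are the shortest, that of Panx1 (−2.05 to −0.06) stops just short of 0, and that of Panx2 is the widest of a member.

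Levels of different genes were compared per length, as CPM per kilobase of the union of annotated exons. In controls the order was Gjb6 at 248 ± 124, Gja1 at 221 ± 89.1, Tjp1 at 31.2 ± 1.77, Gjc3 at 25.6 ± 11, Gjb2 at 7.00 ± 2.96, Gjb1 at 5.25 ± 3.56, Panx1 at 1.42 ± 0.728, Panx2 at 0.555 ± 0.395 and Gjc1 at 0.403 ± 0.260 CPM per kb (SD, n = 4 each). Gjb6 and Gja1 did not differ beyond their spread, nor did Tjp1 and Gjc3, Gjb2 and Gjb1, or Panx1, Panx2 and Gjc1 in turn. The steps from Gja1 to Tjp1 (7.1-fold), from Gjc3 to Gjb2 (3.66-fold) and from Gjb1 to Panx1 (3.7-fold) separated the libraries of the neighbours completely. In cKO the first 6 places were the same, with Gjb6 at 202 ± 49.1 and Gja1 at 159 ± 46.3 CPM per kb, followed by Gjc1 at 0.743 ± 0.512, Panx1 at 0.684 ± 0.220 and Panx2 at 0.260 ± 0.327 CPM per kb (SD, n = 4 each). There Tjp1 (37.9 ± 4.56) and Gjc3 (18.2 ± 4.87) were separated, whereas in controls they were not.

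The place of Gja1 against Gjb6 depends on the length used. The annotated exons of Gja1 together cover 10257 bases. Its longest transcript, which is not annotated as protein-coding, has 3889 bases, whereas its longest protein-coding transcript has 3182 bases. Per kilobase of that transcript, a length chosen after the levels were seen, Gja1 was 1.16 to 2.98 times Gjb6 in the 8 libraries. Per kilobase of union exons the ratio was 0.456 to 1.18, and with the longest transcript 0.948 to 2.44. In the authors' deposited FPKM the group mean of Gja1 was 944 in controls and 684 in cKO, and that of Gjb6 612 and 525. Panx1 also moved between sources: the authors' deposited FPKM gave group means of 11.4 and 7.96, above Gjb1 at 8.55 and 3.56, where counts per kilobase of its longest transcript gave 1.49 and 0.719.

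**Figure D3:**
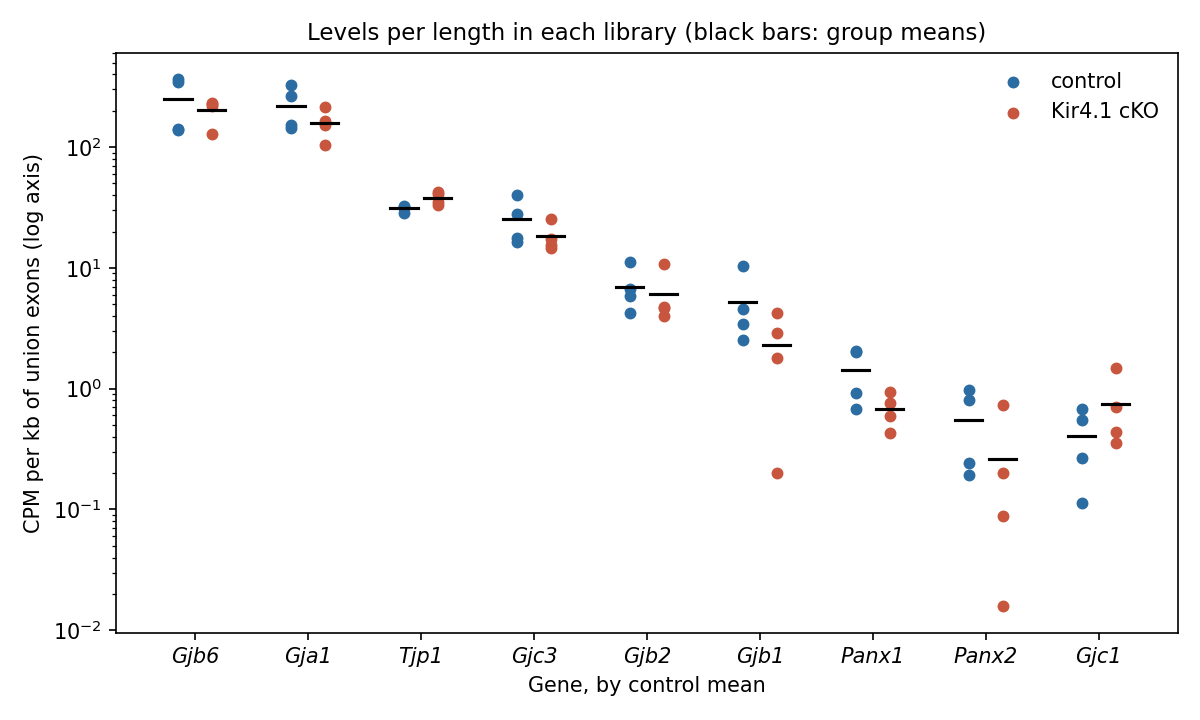
CPM per kilobase of union exons (log axis) of each member in each library, with group means as black bars, ordered by the control mean. Gjb6 and Gja1 lie highest at 104 to 364 CPM per kb, and Panx1, Panx2 and Gjc1 lie around or below 2 CPM per kb.

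Astrocyte connexins made up most of the RNA of these 5 connexin genes. The sum of Gja1, Gjb2 and Gjb6, over that sum plus Gjb1 and Gjc3 (all per kilobase of union exons), was 97.1%, 97%, 89.8% and 85.5% in the controls. It was 93.2%, 95.8%, 95% and 94.7% in the cKO libraries. All cKO shares lay between the pairs of controls, so the groups overlapped, and the means were 92.3% ± 5.7 and 94.7% ± 1.1 (SD, n = 4 each). The spread among controls was the larger one. It came from both sides: the astrocyte sum was 702 and 617 CPM per kb in control S1 and S2 but 289 and 298 in control S6 and S7, while the sum of Gjb1 and Gjc3 was 21.3 and 18.9 against 32.7 and 50.6. In cKO the astrocyte sum was 388, 454, 335 and 291 CPM per kb and the sum of Gjb1 and Gjc3 28.2, 19.7, 17.7 and 16.4. The lowest astrocyte sums were in control S6, control S7 and cKO S8, the 3 libraries with the highest share of rRNA-like transcripts. The part of rRNA-like content in the share of astrocyte connexins was not tested. The labels name no batch.

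**Figure D4:**
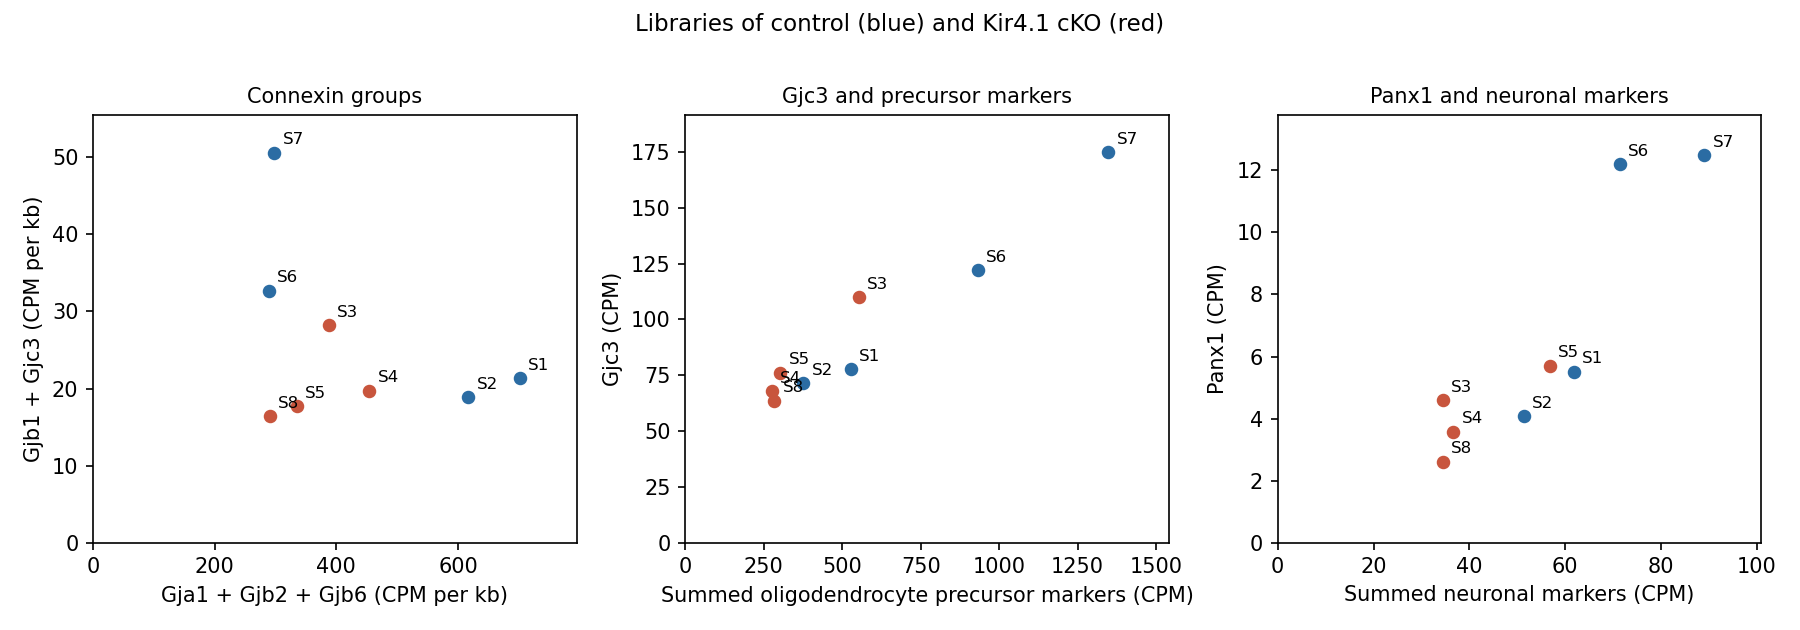
Each point is a library, blue for control and red for cKO. Left, Gjb1 plus Gjc3 against the astrocyte connexins (CPM per kb of union exons). Middle, Gjc3 against the summed markers of oligodendrocyte precursors, and right, Panx1 against summed neuronal markers (all CPM). Control S6 and S7 are the highest libraries for Gjc3 and Panx1 and, with cKO S8, the lowest for astrocyte connexins.

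The other connexin and pannexin genes reported here were at low levels or without reads in these cells. Of these 13 genes, 6 (Gja3, Gja10, Gjb5, Gjd3, Gjd4 and Panx3) had 0 counts in all 8 libraries, which allows a level of up to 0.12 to 0.216 CPM per library from counting error alone. The fit tested 3 (Gja5, Gja6 and Gje1), and 0 of them had an adjusted p under 0.05 (lowest 0.812, edgeR) or an unadjusted p under 0.05. Gja5, which encodes Cx40 of arterial endothelium, was at 12.2, 7.5, 2.86 and 0.426 CPM in the controls and at 9.35, 7.62, 10.5 and 2.83 CPM in the cKO libraries, with a log2 fold change of 0.40 (adjusted p 0.9, edgeR). Gja5 was low in the same 3 libraries as Gjb6, control S6, control S7 and cKO S8. All 9 endothelial markers had counts in every library, with a sum of 153 to 227 CPM in controls and 138 to 167 CPM in cKO. Most of that sum was Slco1c1 (82.5 to 165 CPM in controls and 109 to 125 CPM in cKO), while Cldn5, Cdh5 and Pecam1 were at 0.057 to 10.1 CPM. Between Gja5 and these sums r of log2 values was 0.09, and between Gja5 and summed astrocyte markers 0.76 (8 libraries, a description). The part of endothelial RNA in the Gja5 level was not tested.

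Gja6, the mouse testis connexin Cx33, was at 0.521 to 2.09 CPM in controls and 0 to 1.63 CPM in cKO. Its coding sequence was 74.1% identical to that of Gja1, with a longest identical run of 24 bases. Gje1 was at 0.684 to 1.42 CPM over all libraries. Gja4, the endothelial Cx37, had 42, 0, 0 and 29 counts in the controls and 1, 31, 0 and 0 in the cKO libraries. Gjd2, the connexin of neuronal electrical synapses, had 47 of its 54 counts in control S7.

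Genes known to bind, phosphorylate or turn over connexins, or to act on the ATP that hemichannels and pannexins release, were read from the same fit. The fit held 33 of 35 listed genes, and 0 of these 33 passed at an adjusted p of 0.05, as 0.318% of all genes did. Their median log2 fold change was 0.07, with 19 positive and 14 negative. At an unadjusted p under 0.05 there were 5, 3 higher and 2 lower in cKO, where 9.81% of all genes tested were. Entpd2, an enzyme that degrades extracellular ATP, was at 144, 150, 83.7 and 110 CPM in controls and 84.9, 70.1, 53 and 56.3 CPM in cKO, a log2 fold change of −0.88 (SE 0.22, adjusted p 0.142, edgeR). All cKO libraries but S3 were below every control. Cdh2, the N-cadherin of adherens junctions, was at 315, 263, 242 and 244 CPM in controls and 316, 398, 440 and 338 CPM in cKO, and its catenin partner Ctnnd1 at 68.2, 63.3, 83.5 and 92 CPM against 86.8, 104, 123 and 115 CPM. Their log2 fold changes were 0.49 and 0.48 (adjusted p 0.311 and 0.373, edgeR). Cttn, which encodes the actin regulator cortactin, had a log2 fold change of 0.93 (adjusted p 0.387, edgeR), with cKO S5 at 55.2 CPM and the other cKO libraries at 19.1 to 24.2 CPM. Ptpn1, a phosphatase, had one of −0.88 (adjusted p 0.406, edgeR), with control S7 at 55 CPM and the other controls at 17.9 to 27.6 CPM.

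The genes whose levels followed each connexin most closely over the 8 libraries were picked by Pearson's r of log2 CPM among 9463 genes, as a description. Picking the highest of so many values over 8 libraries yields a high r by itself, so these values do not show shared regulation. For Gja1 they were Mdh1 (r 0.975), Kdsr (0.967) and Agpat5 (0.966). For Gjb6 they were Acsl3 (0.973), the histamine receptor gene Hrh1 (0.971) and Slc29a3 (0.968). For Gjc3 they were Chn2 (0.974), Psmc1 (0.966) and Sulf2 (0.963), and for Gjb1 Dtd1 (0.981), Poc1b (0.970) and Grm3 (0.966). For Gjb2 the closest were Abtb1 (0.898), Brcc3 (0.894) and Sox13 (0.890). No gene was picked for more than 1 connexin, and none of these 15 genes had an adjusted p under 0.05 between groups (lowest 0.31, for Chn2, edgeR).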

How the data were processed

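The authors deposited raw read counts per gene for each library. TopHat2 2.0.11, Bowtie2 2.2.3 and HTSeq 0.6.1p1 on GRCm38 are listed, with no roles, in the submitters' processing notes. The annotation release and strand setting are not given in the sources used here. The 5 closing lines of each count table name no gene, held 56.4% to 61.7% of reads (20.4% to 24.2% without a unique position) and were left out. The authors also deposited FPKM values (Cufflinks 2.2.1 and Cuffnorm, per the submitters' processing notes). An FPKM column followed the counts of the library of its own name in only 3 of 8 cases, though always a library of its group, so FPKM served as group means only. The authors' deposited table of a DESeq2 comparison holds group means of scaled counts (a signal), log2 fold changes, standard errors and Wald statistics (scores), and p-values.

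Counts were tested with edgeR 4.0.16 (TMM, filterByExpr, quasi-likelihood test, no covariate) over 14757 genes, after a test on simulated data, with limma 3.58.1 (voom) and DESeq2 1.42.0 as alternatives. R 4.3.3, Python 3.11.15, SciPy 1.17.1, Biopython 1.88 and matplotlib 3.10.9 were used. Intervals are 95% and use the fit's degrees of freedom. Coordinates and lengths are from GENCODE mouse release 21. The rRNA-like transcripts were those annotated as rRNA or Mt_rRNA plus Gm26870, Gm26917, Gm42418, Gm26924 and Lars2. No library pair agreed within sampling noise (lowest chi-square per degree of freedom 18.5), so none was treated as a repeat deposit of another. Named genes were the members, other connexin and pannexin genes with at least 10 counts, partner genes with the smallest p under 0.05 (up to 8), and the 3 genes most like each of 5 connexins with at least 5 CPM. The members and lists were chosen with earlier results of these data known. Some connexin genes listed at the outset are not reported here and are left out of the share of astrocyte connexins. The libraries count as replicates because the design text calls them biological replicates.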

Additional observations from a re-analysis of the deposited data

Results flagged for a closer look

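Among the 20 sets of 4 libraries examined, 2 had a member library well away from the rest. About 1 such set in 20 arises by chance. Both cases were in cKO S8. Gjb2 was at 25.9 CPM there, against 9.69 to 11.3 CPM in the other cKO libraries. Gjb6, its neighbour on chromosome 14, was at 344 CPM there, against 585 to 623 CPM, so the pair lay apart in opposite directions.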

How the results depend on the processing

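No member passed the threshold under any of the 16 alternative fits: RLE size factors, library totals, DESeq2, limma-voom, no filter (at least 1 count in any library), at least 10 counts in every library, Xist level as a covariate, no rRNA-like transcripts, and 8 fits that each left out a library. The filter of 10 counts in every library left Gjb1, Gjc1 and Panx2 untested. Members kept the sign of their fold change in 140 of 141 such values, and Gjb2 reversed to 0.11 without control S1. Gjb2 ranged from −0.64 (without cKO S8) to that value. The count of genes called over the whole table was 47 as reported (30 higher and 17 lower), and 62 with library totals only (48 higher and 14 lower). It was 384 with DESeq2, 87 without a filter, 84 with at least 10 counts in every library, 28 with Xist as a covariate, and 4 (without cKO S4) to 45 (without cKO S3) when a library was left out. It fell by over 1.5 times also without control S1 (30), control S2 (14), control S6 (16), cKO S5 (24) and cKO S8 (28). The order of the members rests on gene length: in controls 5 of 9 kept their place with the longest transcript, 5 with the longest protein-coding transcript (chosen after seeing the data) and 2 with FPKM group means, and in cKO 5 did with FPKM. The astrocyte share of the connexin RNA summed in cKO was 94.7% as reported, 96.8% with the longest transcript, 97.2% with the longest protein-coding one, 97.4% from FPKM and 96.2% from raw counts, and 94.3% to 95.2% when a library was left out. In controls it was 92.3% as reported, and under the same alternatives 95.5%, 96%, 97% and 95.1%, so the gap between the groups narrowed from 92.3% against 94.7% to 97% against 97.4% from FPKM. It ran from 90.8% to 94.6% when a control library was left out. No paired analysis was possible because the groups share no replicate number. Genes under about 10 CPM (Gjb1, Gjc1, Panx1 and Panx2) rest on 1 to 376 counts per library, and their intervals are wide.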

Other observations

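The balance of the 2 abundant astrocyte connexins differed between libraries. The ratio of Gja1 to Gjb6 counts was 3.44, 2.92, 3.97 and 4.08 in the controls, and 2.88, 3.57, 1.75 and 4.51 in the cKO libraries. cKO S5 had the lowest ratio and cKO S8 the highest, so the cKO libraries spanned the control range on both sides.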
